A study of Chlorocebus aethiops vervet with 14 samples.

Results

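Kinesins, dynein, dynactin and the tubulins were read here as 58 genes of the 14132 genes that the rhesus array names with a single symbol. They were chosen by symbol (symbols starting with KIF and a digit, KLC1 to KLC4, DYNC, DYNL, DCTN1 to DCTN6, TUBA, TUBB or TUBG). The choice was made with earlier results of these data known. Each gene was read on its brightest probe set over the 12 rhesus arrays. The choice covers 29 kinesin heavy chain genes, 4 kinesin light chain genes, 7 dynein heavy, intermediate and light intermediate chain genes, 4 dynein light chain genes, 5 dynactin genes, 2 alpha tubulins, 3 beta tubulins, and 4 genes of gamma tubulin and its ring complex. The 58 genes were measured by 105 probe sets, and 50 of the genes passed the filter on dim probe sets.

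RNA came from the lateral geniculate nucleus, the part of the thalamus that passes retinal signals to visual cortex, of normal adult male vervet monkeys, with no treatment or genetic change in any group. Laser capture under cresyl violet stain took neuronal cell bodies from the magnocellular layers (M neurons) and from the parvocellular layers (P neurons), and heterogeneous tissue from the magnocellular layers (M layers) and from the parvocellular layers (P layers). Each of the 4 groups holds 3 arrays from 3 animals, at about 3000 laser pulses a sample, and it is not stated whether one animal gave tissue to more than 1 group. The RNA was amplified in 2 rounds and hybridized to an array designed on rhesus sequence, and mismatches to vervet transcripts can lower some probe sets on all arrays alike, so levels of different genes are not compared.

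Kinesins and cytoplasmic dynein are motor proteins that walk along microtubules, which are polymers of alpha and beta tubulin dimers. Most kinesins carry cargo toward the plus ends, which in axons point away from the cell body, and dynein, with its activator dynactin, carries cargo toward the minus ends and so back to the soma. A cell body capture holds the transcripts made and kept in the soma, while a layer capture adds glia, vessels, axons and dendrites.

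Facts of the arrays bear on every value below. The median signal per array was 11.9 to 14.8, and signals are MAS5 intensities on a linear scale. The GAPDH control probe set at the transcript's 5′ end read 8.54% to 18.5% of the 3′ probe set on the 6 neuron arrays and 2.73% to 3.46% on the 6 layer arrays, so that each neuron array lay above each layer array. On the log2(signal + 16) scale the 3′ probe set differed between neurons and layers by -0.006, the middle one by 2.01 and the 5′ one by 1.92, and these last differences exceed that of every motor or tubulin gene. Astrocyte markers were lower in neurons for 6 of 7 tested genes, with summed signals of 6185 to 10331 in M neurons, 7285 to 8324 in P neurons, 13205 to 14441 in M layers and 10423 to 11858 in P layers. Oligodendrocyte markers were lower in neurons for 3 of 6 tested. Neuron markers were higher for 3 of 5, namely ENO2, STMN2 and THY1, while SYT1 (-0.03) and NEFH (0.18) were not called. STMN2 is also on the list of motor and tubulin partners counted below. Of all tested genes, 24.2% were called higher in neurons and 5.21% lower. Markers of microglia were lower in neurons for 2 of 7, of vessels for 2 of 3 and of oligodendrocyte precursors for 1 of 2. Inhibitory neuron markers (2 tested) and cilia markers (1 tested) gave no call. Summed microglia signals overlapped between captures, at 1220 to 1839 in M neurons and 1247 to 1493 in P neurons. In layers they were 1142 to 1525 (M) and 1046 to 1308 (P). SOX9, C1QB, FLT1, SPAG6 and DNAH9 fell below the filter, and no list summed to 0 in the neuron captures, the lowest being the cilia list at 27.3. The arrays were run on 3 fluidics stations, of which one held P neurons 2 and 3 with M layers 1 and 2, another the M neurons with P neuron 1, and the last M layer 3 with the P layers. No station held both captures of one layer type, so a within-station contrast of neurons and layers exists only across M and P.

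The first question is how the motor and tubulin transcripts differ between captured neurons and whole layers. Over M and P together, 18 of the 50 tested genes were higher in neurons and 1, KIF5B, was lower. Among all 10029 tested genes 24.2% were called higher and 5.21% lower, against 36.0% and 2.0% here, and the median difference was 0.26 for the 50 genes and 0.17 for all genes. Calls are limma tests on log2(signal + 16) at a Benjamini-Hochberg adjusted p under 0.05 over 26383 probe sets, the added 16 makes fold changes of dim genes come out too small, and n is 6 neuron against 6 layer arrays. Arrays of the 2 captures did not overlap for 12 genes that were higher and 1 that was lower, against backgrounds of 11.2% and 2.32%. Quantile normalization, which brings the median difference of all genes to 0.01 and that of the 50 to 0.14, kept 16 of the 19 calls and moved the size of 10 by over 1.5 times, all toward 0. Of these, TUBA4A came to 0.32, TUBG1 to 0.33, DYNC1LI1 to 0.37, DYNLT2B to 0.35, DCTN3 to 0.32, DCTN6 to 0.34 and KIF5C to 0.20 (adjusted p = 0.0271), all still called, and KIF3B, KIF20B and DCTN1 lost their calls. KIF1C, named after its values were seen, was then called lower (-0.40, adjusted p = 0.0246). With the station as a block all 19 called genes kept their direction, at 0.754 to 1.97 times the size and with SEs 2.2 to 2.5 times as wide, and TUBB alone remained called (1.56, adjusted p = 0.00664). Within the one station that held both captures, P neurons 2 and 3 were set against M layers 1 and 2. All 19 had the same sign there, and TUBB alone was called (1.12, adjusted p = 0.0135). Each of these checks reuses arrays that made the 19 calls, so the kept signs are no independent support. Over all 26383 probe sets the main fit called 5139 higher and 1215 lower. The station block called 616 probe sets in all, and the within-station contrast 1252. In bulk captures, fewer cells of a type and less RNA per cell cannot be told apart, and the part that the RNA ends, the glial share and the station play in these differences was not tested.

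**Figure D1:**
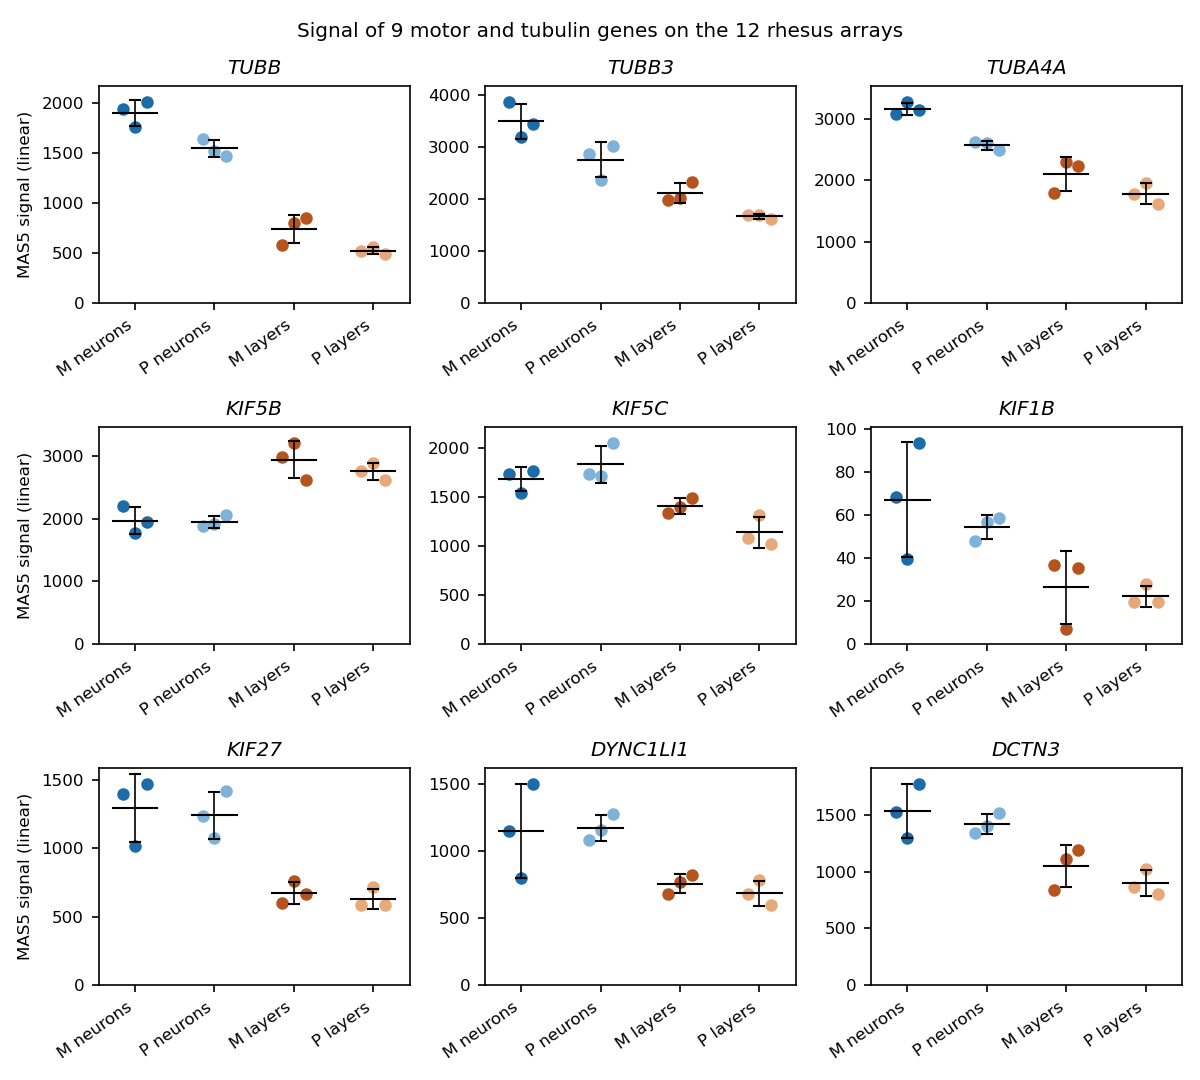
MAS5 signal (linear, vertical axis from 0) of 9 genes on the 12 rhesus arrays, by group; points are arrays, horizontal lines group means and bars 1 SD (n = 3). TUBB lies between 1472 and 2008 in neurons and between 486 and 846 in layers, while KIF5B runs the other way.

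Among the tubulins, which build the microtubule, TUBB rose most in neurons and TUBB3 and TUBA4A rose with it. TUBB, the widely expressed class I beta tubulin, read 1942, 1758 and 2008 in M neurons, 1642, 1521 and 1472 in P neurons, 576, 798 and 846 in M layers and 524, 565 and 486 in P layers. Every neuron array lay above every layer array. The difference was 1.45 ± 0.11 (SE), a 2.72-fold rise (adjusted p = 1.37e-07), the largest of the 50 genes. TUBB3, the class III beta tubulin used as a neuronal marker, read 3873, 3204 and 3442 in M neurons and 2875, 2378 and 3028 in P neurons. In layers it read 1984, 2029 and 2337 (M) and 1705, 1699 and 1618 (P), again below every neuron array, with P neuron 2 closest to the layers. It rose by 0.72 ± 0.09 (adjusted p = 2.39e-05). TUBB1, the platelet form, was dim, with values from 1.41 to 30.8, and its difference of 0.21 did not pass the test.

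TUBA4A, the only alpha tubulin tested, read 3077, 3272 and 3139 in M neurons, 2614, 2604 and 2484 in P neurons, 1789, 2302 and 2226 in M layers and 1768, 1952 and 1612 in P layers. Its neuron arrays all lay above its layer arrays, and it rose by 0.56 ± 0.09 (adjusted p = 0.000203). TUBG1, gamma tubulin, which nucleates microtubules, read 666 ± 86.3 (SD, n = 3) in M neurons, 564 ± 103 in P neurons, 409 ± 81.0 in M layers and 376 ± 37.4 in P layers, and rose by 0.62 ± 0.13 (adjusted p = 0.00187). TUBGCP4, a ring complex subunit, rose by 0.58 ± 0.15 (adjusted p = 0.00911) from dimmer signals, whose arrays overlapped. Ring complex subunits TUBGCP2 and TUBGCP6 were not called. TUBB, TUBB3 and TUBA4A belong to families of near-identical coding sequence, and which family member a probe set reads was not tested.

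The kinesin heavy chains gave 6 of 26 genes higher, a share of 23.1% near the 24.2% of all genes, and 1 lower. KIF1B, a kinesin of mitochondria and synaptic vesicle precursors, read 68.6, 39.6 and 93.5 in M neurons, 47.9, 56.6 and 58.8 in P neurons, 36.7, 6.95 and 35.2 in M layers and 19.3, 27.9 and 19.4 in P layers. It rose by 0.95 ± 0.20 (adjusted p = 0.00171), at signals where M layer 2 stood at 6.95 and well under its group. KIF27, a relative of the Hedgehog pathway kinesin KIF7, read 1295 ± 245 (SD, n = 3) in M neurons and 1241 ± 172 in P neurons. In layers it read 675 ± 82.0 (M) and 628 ± 74.0 (P), and it rose by 0.94 ± 0.12 (adjusted p = 2.57e-05) with no overlap of arrays.

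KIF5B and KIF5C, both heavy chains of kinesin-1, changed in opposite directions. KIF5B, the form expressed in most cell types, read 2201, 1772 and 1948 in M neurons, 1880, 1912 and 2057 in P neurons, 2996, 3213 and 2626 in M layers and 2768, 2888 and 2621 in P layers. It was lower in neurons by -0.54 ± 0.09 (adjusted p = 0.000277), the only lower call, and no array overlapped. KIF5C, the form enriched in neurons, read 1736, 1537 and 1763 in M neurons, 1736, 1709 and 2047 in P neurons, 1330, 1393 and 1492 in M layers and 1085, 1314 and 1015 in P layers. It rose by 0.47 ± 0.10 (adjusted p = 0.00209). KIF5A, the third form, also enriched in neurons, read 96.3 to 163 in neurons and 89.8 to 126 in layers, and its difference of 0.23 was not called. Within each array, the log2 difference of KIF5C minus KIF5B was -0.34 to -0.01 on neuron arrays and -1.35 to -0.81 on layer arrays, a shift of 1.00 that is no comparison of their levels. The pair was chosen after its values were seen.

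KIF3A and KIF3B, the motor subunits of heterotrimeric kinesin-2 and of anterograde transport in cilia, rose by 0.55 ± 0.18 (adjusted p = 0.0304) and 0.53 ± 0.16 (adjusted p = 0.0242), with overlapping arrays. KIF20B, a kinesin of cell division, rose by 0.45 ± 0.13 (adjusted p = 0.0136). Quantile normalization ended the calls of KIF3B (0.25, adjusted p = 0.197) and KIF20B (0.17, adjusted p = 0.226). KIF3B, KIF20B and DCTN5 below were named after their values were seen. KIF3A lost its call without any one of 7 arrays and KIF3B without any one of 5 (M neurons 1 and 3, P neuron 3, M layer 1 and P layer 3 for both, with M layer 2 and P layer 1 for KIF3A). Their highest adjusted p was 0.0998 and 0.0753. In a fit blocked on replicate number, KIF3C (0.34, adjusted p = 0.0428) and KIF9 (0.47, adjusted p = 0.0217) were called too, a pair named after their values were seen. KIF2A, which depolymerizes microtubules, differed by 0.30 and KIF21A by 0.13, and neither was called. The tested kinesin light chains, which bind kinesin-1 cargo, gave no call among 3 genes, with KLC4 at 0.21 and KLC3 at -0.10.

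Dynein chains were higher for 2 of 5 genes and dynein light chains for 1 of 3, where 24.2% of all tested genes were higher. DYNC2LI1, the light intermediate chain of the ciliary dynein-2, read 315, 292 and 247 in M neurons, 228, 231 and 228 in P neurons, 132, 188 and 167 in M layers and 103, 160 and 98.8 in P layers. It rose by 0.82 ± 0.14 (adjusted p = 0.000331), with every neuron array above every layer array. DYNLT2B, a dynein-2 light chain, read 589 ± 60.5 (SD, n = 3) in M neurons and 370 ± 25.9 in M layers, 487 ± 59.8 in P neurons and 311 ± 51.5 in P layers, and rose by 0.64 ± 0.12 (adjusted p = 0.000809). DYNC1LI1, a light intermediate chain of cytoplasmic dynein-1, read 1149, 799 and 1498 in M neurons, 1083, 1153 and 1274 in P neurons, 678, 767 and 821 in M layers and 680, 781 and 596 in P layers. It rose by 0.66 ± 0.14 (adjusted p = 0.0014), although M neuron 2 lay below M layer 3. Its paralog DYNC1LI2 differed by 0.01 and the light chain DYNLL1 by 0.07, and neither was called.

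Dynactin, which links dynein to cargo and to the microtubule, was higher for 4 of 5 tested genes, against 24.2% of all tested genes. Quantile normalization left 3 of these calls. DCTN3, the p24 subunit of the shoulder, read 1528, 1298 and 1774 in M neurons, 1346, 1408 and 1519 in P neurons, 842, 1110 and 1193 in M layers and 866, 1028 and 804 in P layers, and rose by 0.60 ± 0.12 (adjusted p = 0.000868). DCTN6, a pointed end subunit, rose by 0.63 ± 0.14 (adjusted p = 0.00217). The arrays of DCTN3 and of DCTN6 did not overlap between captures. DCTN5, also of the pointed end, rose by 0.46 ± 0.15 (adjusted p = 0.0287), and DCTN1, the p150 subunit that binds microtubules, by 0.35 ± 0.12 (adjusted p = 0.0365). DCTN5 lost its call without any one of 5 arrays (M neuron 1, P neuron 1, M layers 1 and 2, P layer 2), with an adjusted p of up to 0.0762. DCTN1 lost it without any one of 8, with an adjusted p of up to 0.112, and kept it only without M neuron 2, M neuron 3, P neuron 2 or P layer 2. Quantile normalization left DCTN1 at 0.06 (adjusted p = 0.745).

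**Figure D2:**
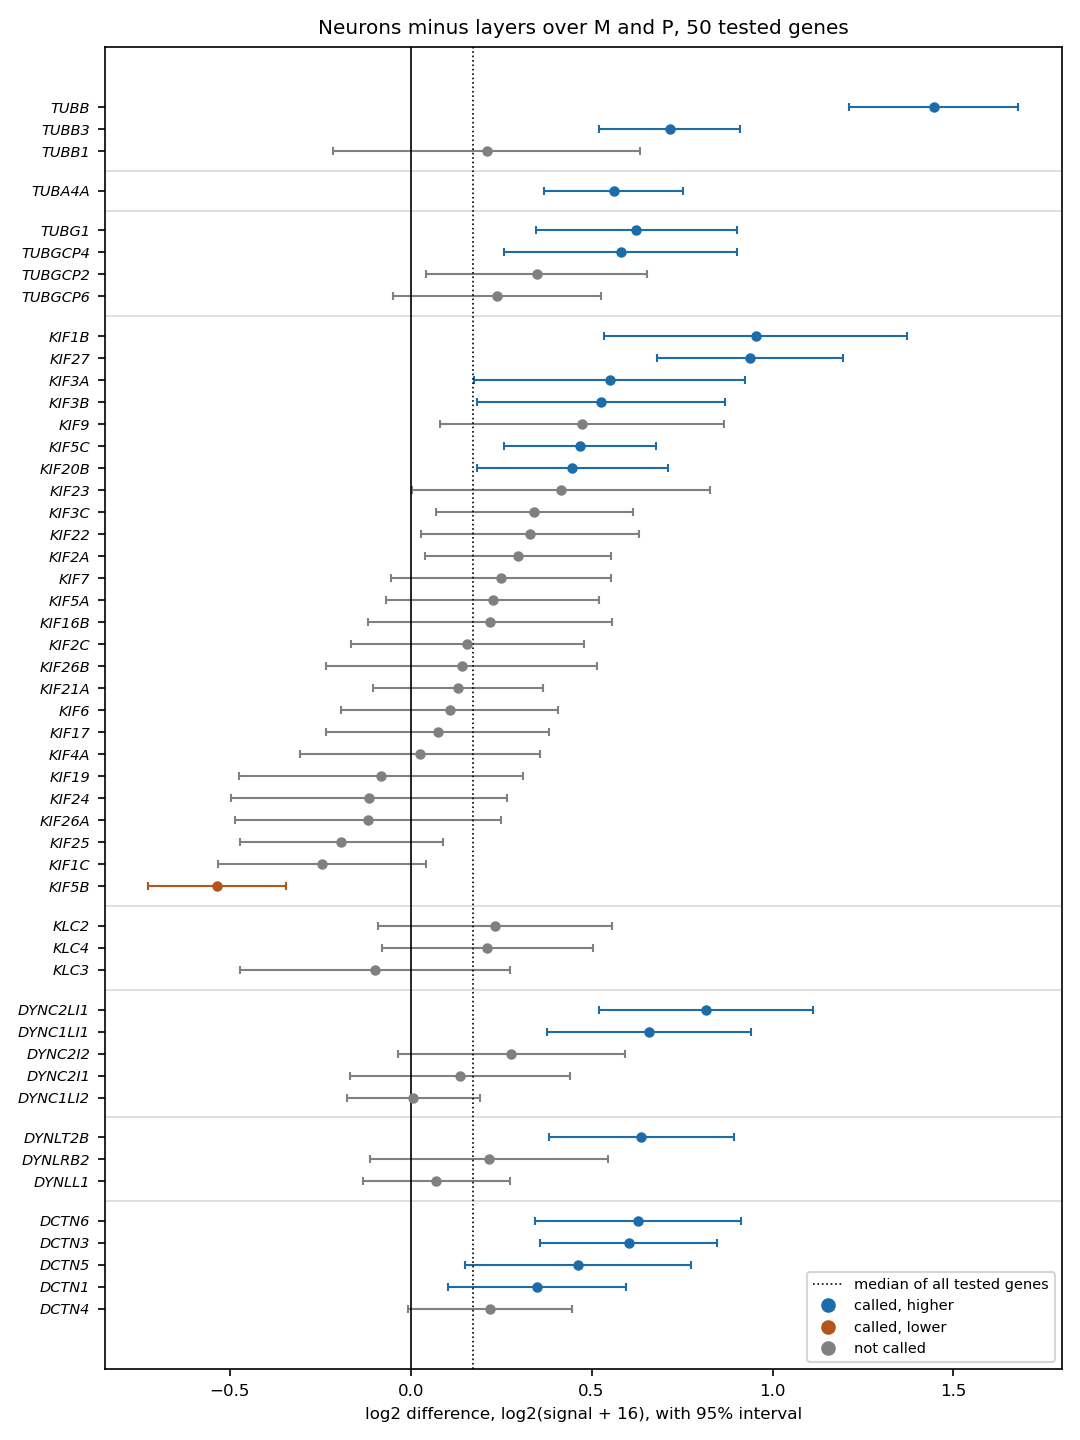
Difference in log2(signal + 16), neurons minus layers over M and P (horizontal axis), for the 50 tested genes on the vertical axis, grouped by family; bars are 95% intervals of the limma fit, blue marks genes called higher, orange called lower, grey not called, and the dotted line is the median of all tested genes. TUBB stands at 1.45 and KIF5B at -0.54, the highest and lowest of the 50.

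Probe sets of one gene gave different values, so a call belongs to its probe set. The brightest ones were MmugDNA.30895.1.S1_s_at for TUBB, MmugDNA.38692.1.S1_at for TUBB3, MmuSTS.4681.1.S1_at for TUBA4A, MmugDNA.8525.1.S1_at for KIF5B, MmugDNA.11696.1.S1_at for KIF5C, MmugDNA.1609.1.S1_at for KIF1B and MmugDNA.36026.1.S1_at for KIF27. Of 19 genes with more than 1 tested probe set, 4 had all of them called, 8 some and 7 none (over all tested probe sets 19.5% were called higher and 4.61% lower), and the median gap between the highest and lowest probe set of a gene was 0.29. TUBB3 spanned 0.17 to 1.83, with the brightest probe set at 0.72, and TUBB gave 1.45 and 1.66. KIF1B was 0.95 on its brightest probe set and -0.22 on the other one tested, and KIF5B was -0.54 and -0.04. KIF21A was 0.13 on the brightest and 0.85 on the other (adjusted p = 0.000181), and DYNC1LI2 was 0.01 on the brightest and 0.59 on one of the other 3. KIF2A, at 0.30 on the brightest, ran from -0.21 to 0.46 over 4 probe sets, of which 1 was called higher. Averaged over all probe sets of a gene, KIF1B came to 0.32 (adjusted p = 0.0913), KIF5B came to -0.29 (adjusted p = 0.0785) and DYNC2LI1 to 0.32 (adjusted p = 0.0838), none of them called, while KIF21A was called at 0.49 (adjusted p = 0.00534). The GAPDH probe sets at different places of 1 transcript spanned -0.006 to 2.01 in the same comparison, and where the motor probe sets lie on their transcripts was not tested.

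**Figure D3:**
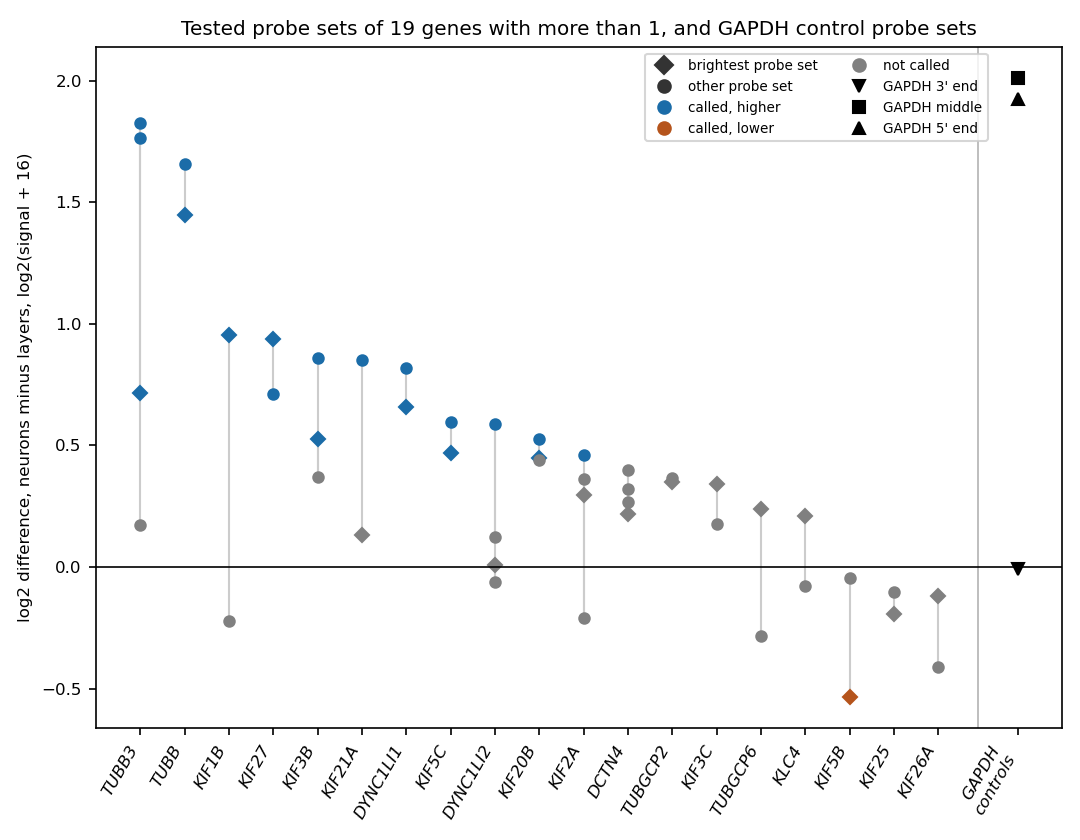
Difference in log2(signal + 16), neurons minus layers over M and P (vertical axis), for each tested probe set of the 19 genes with more than 1 (horizontal axis) and for the GAPDH controls; diamonds are the brightest probe set, circles the others, blue and orange are called. The TUBB3 probe sets span 0.17 to 1.83, and the GAPDH middle and 5′ controls stand near 2 while the 3′ control stands near 0.

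Split by layer type, 9 genes were higher and 1 lower in M neurons against M layers, and 10 higher and 1 lower in P neurons against P layers. The backgrounds over all genes were 9.7% and 3.38% in M, and 11% and 1.73% in P. The lists shared 8 genes, 80.0% of the M list and 72.7% of the P list, where all called genes shared 59.6% and 61.0% in the same direction, and these comparisons share no arrays but do share an estimate of the spread. The shared genes were TUBB (1.36 in M, 1.53 in P), TUBB3 (0.72 and 0.71), TUBA4A (0.59 and 0.53), KIF27 (0.91 and 0.96), DYNC2LI1 (0.76 and 0.87), DYNLT2B (0.65 and 0.63), DCTN3 (0.55 and 0.66) and KIF5B (-0.57 and -0.50). KIF1B (1.02) and TUBG1 (0.69) were called in M, where P gave 0.89 and 0.55 with no call, and KIF5C (0.68), DYNC1LI1 (0.76) and DCTN6 (0.66) in P, where M gave 0.25, 0.55 and 0.60 with no call. Which layer type carried these calls moved with the fit. In a fit blocked on replicate number, KIF1B (adjusted p = 0.0172) and TUBG1 (adjusted p = 0.0429) were also called in P, and DYNC1LI1 (adjusted p = 0.0435), DCTN6 (adjusted p = 0.0348), TUBGCP4 (0.66, adjusted p = 0.0244) and KIF3A (0.74, adjusted p = 0.0465) in M. A fit on only the groups compared called KIF1B (adjusted p = 0.00625) and TUBG1 (adjusted p = 0.0388) in P and neither in M (adjusted p = 0.0551 and 0.0643), where DCTN3, DYNC2LI1 and DYNLT2B also lost their calls. Quantile normalization ended the calls of TUBA4A (0.25), DYNLT2B (0.30), DYNC2LI1 (0.58) and DCTN6 (0.31) in P and of DYNC2LI1 (0.52) in M. With the mean over probe sets KIF5B (-0.31 in M, -0.27 in P) and DYNC2LI1 (0.41 and 0.23) were called in neither, and KIF1B (0.30) was not called in M. The interaction was the test of these differences, and none was called. Its count was 0 of 50 by limma, as over all genes (0%). At an unadjusted p under 0.05 the count was 1, a share of 2.0% against 2.2% of all genes. That gene was KIF5C, at -0.43 ± 0.20 (unadjusted p = 0.0468, adjusted p = 0.9999).

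Calls inside one layer type depended on single arrays. In M, the calls of TUBB, TUBB3, TUBA4A, KIF27 and KIF5B held under all 12 omissions of 1 array. The other 5 were lost without M neuron 1 (DYNC2LI1, DCTN3, KIF1B, DYNLT2B), M neuron 3 (DCTN3, KIF1B, DYNLT2B, TUBG1), M layer 1 (DYNC2LI1, DCTN3, DYNLT2B, TUBG1) or M layer 2 (DCTN3, KIF1B at 0.63, DYNLT2B), and for DCTN3 also without 1 of 3 P arrays. In P, TUBB, TUBB3, KIF27 and KIF5C held under all 12, and the other 7 were lost without P neuron 1 (DCTN6, KIF5B, TUBA4A), P neuron 2 (DYNLT2B, KIF5B), P neuron 3 (DCTN3, DYNLT2B, DCTN6, DYNC1LI1), P layer 1 (all 7), P layer 2 (DCTN6) or P layer 3 (all 7 but KIF5B). Without P layer 1, 4 genes were called in P.

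The partners of the motors and of tubulin gave calls in the same comparison. Of 92 listed motor adaptors, microtubule-associated proteins and tubulin chaperones or modifiers, 59 were tested, and 23 were higher and 1 lower in neurons, against the same background of 24.2% and 5.21%. Quantile normalization gave 10 higher and 3 lower, and the station as a block 2 higher. That background holds for the main fit, which called 5139 of 26383 probe sets higher and 1215 lower. Over the same probe sets quantile normalization called 5482 in all, and the station block 616. BICDL1, a dynein adaptor, rose by 0.85 ± 0.10 (adjusted p = 8.66e-06), and KIFBP, a kinesin-binding protein, by 0.81 ± 0.14 (adjusted p = 0.000358). KIFAP3, the accessory subunit of kinesin-2 beside KIF3A and KIF3B, rose by 0.49 ± 0.10 (adjusted p = 0.00111). STMN3, a stathmin that binds tubulin dimers, rose by 0.73 ± 0.11 (adjusted p = 0.000127), and the tubulin folding cofactor TBCE by 0.65 ± 0.13 (adjusted p = 0.00109). VASH1, a tubulin carboxypeptidase, was the lower one at -0.42 ± 0.14 (adjusted p = 0.0362). Only counts were planned for this list, and these genes were named after their values were seen. Their values under the alternatives are not given here.

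The second question is whether the large-celled magnocellular and the smaller-celled parvocellular layers differ in these transcripts. None of the 50 genes was called by limma, over both captures, in neurons or in layers, and 5, 2 and 4 of them had an unadjusted p under 0.05, which is 10.0%, 4.0% and 8.0% against 11.1%, 7.8% and 6.1% of all genes. Over all genes 0.548% were called higher in M and 0.499% lower over both captures, 0.13% and 0.199% in neurons, and 0.0698% in each direction in layers. The median difference was 0.10 for the 50 genes and 0.04 for all genes, and 76.0% of the 50 lay above 0, as did 59.4% of all genes. That median came to 0.042 (all genes 0.040) with the mean over probe sets, to 0.053 (0.027) with 64 in place of 16, to 0.058 (0.014) without M neuron 3, to 0.068 (0.026) without M layer 3 and to 0.16 (0.10) with the station as a block. The GAPDH 5′ share overlapped between M and P arrays. The same share of the control EF1A overlapped in neurons (8.10% to 12.6% in M, 9.08% to 11.1% in P), while in layers each M array (4.56% to 6.68%) lay below each P array (7.46% to 7.65%). Astrocyte GFAP was higher in M (0.81, adjusted p = 0.0101), the only call among 7 tested astrocyte markers. The neurofilament gene NEFH was higher too (0.34, adjusted p = 0.023), the only call among 5 tested neuron markers. The part of these controls and markers in the values below was not tested.

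The tubulins held 3 of the 5 lowest p-values over both captures. TUBB differed by 0.38 ± 0.11, with a 95% interval of 0.15 to 0.62 (adjusted p = 0.146). TUBB3 differed by 0.34 ± 0.09, interval 0.14 to 0.53 (adjusted p = 0.108), and TUBA4A by 0.27 ± 0.09, interval 0.08 to 0.46 (adjusted p = 0.256). These intervals cover each gene alone, and none passed the adjustment over all probe sets. Quantile normalization called TUBB (0.33, adjusted p = 0.0367) and TUBB3 (0.29, adjusted p = 0.04), and without M layer 1 TUBB was called (0.47, adjusted p = 0.0328). With the station as a block TUBB stood at 0.44 (adjusted p = 0.451) and TUBB3 at 0.38 (adjusted p = 0.443). Within stations, TUBB differed by 0.21 between M and P neurons and by 0.67 between M and P layers, each time with 1 array on one side. In neurons, the 3 arrays of M lay above the 3 of P for TUBB, TUBB3 and TUBA4A, with differences of 0.30, 0.35 and 0.30. In layers the arrays of M lay above those of P for TUBB (0.47) and TUBB3 (0.33), while TUBA4A overlapped (0.24). Over the 50 genes, 12.0% were higher in M with no overlap in neurons and 14.0% in layers, against 6.34% and 9.51% of all genes. One gene was lower in M with no overlap in each capture (DYNLL1 in neurons and DCTN1 in layers), a share of 2.0% against 5.32% and 3.38% of all genes.

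Dynein chains gave DYNC2LI1 at 0.34 ± 0.14 (adjusted p = 0.39) and DYNLT2B at 0.26 ± 0.12 (adjusted p = 0.504), and neither was called. DYNLL1 lay at -0.18 ± 0.10, interval -0.39 to 0.02 (adjusted p = 0.573), with lower M than P arrays in neurons. Among the kinesins KIF5B differed by 0.05 (interval -0.14 to 0.24), KIF5C by 0.09 (-0.12 to 0.30), KIF5A by 0.20 (-0.09 to 0.50) and KIF1B by 0.12 (-0.30 to 0.54). The dynactin genes ran from -0.11 for DCTN1 to 0.16 for DCTN5. Over the 50 genes the intervals reached from -0.55 to 0.69, and each gene's own interval stands in the plot of M minus P. No probe set of the 48 on genes with more than 1 was called here, against 0.432% of all probe sets higher and 0.409% lower in M.

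**Figure D4:**
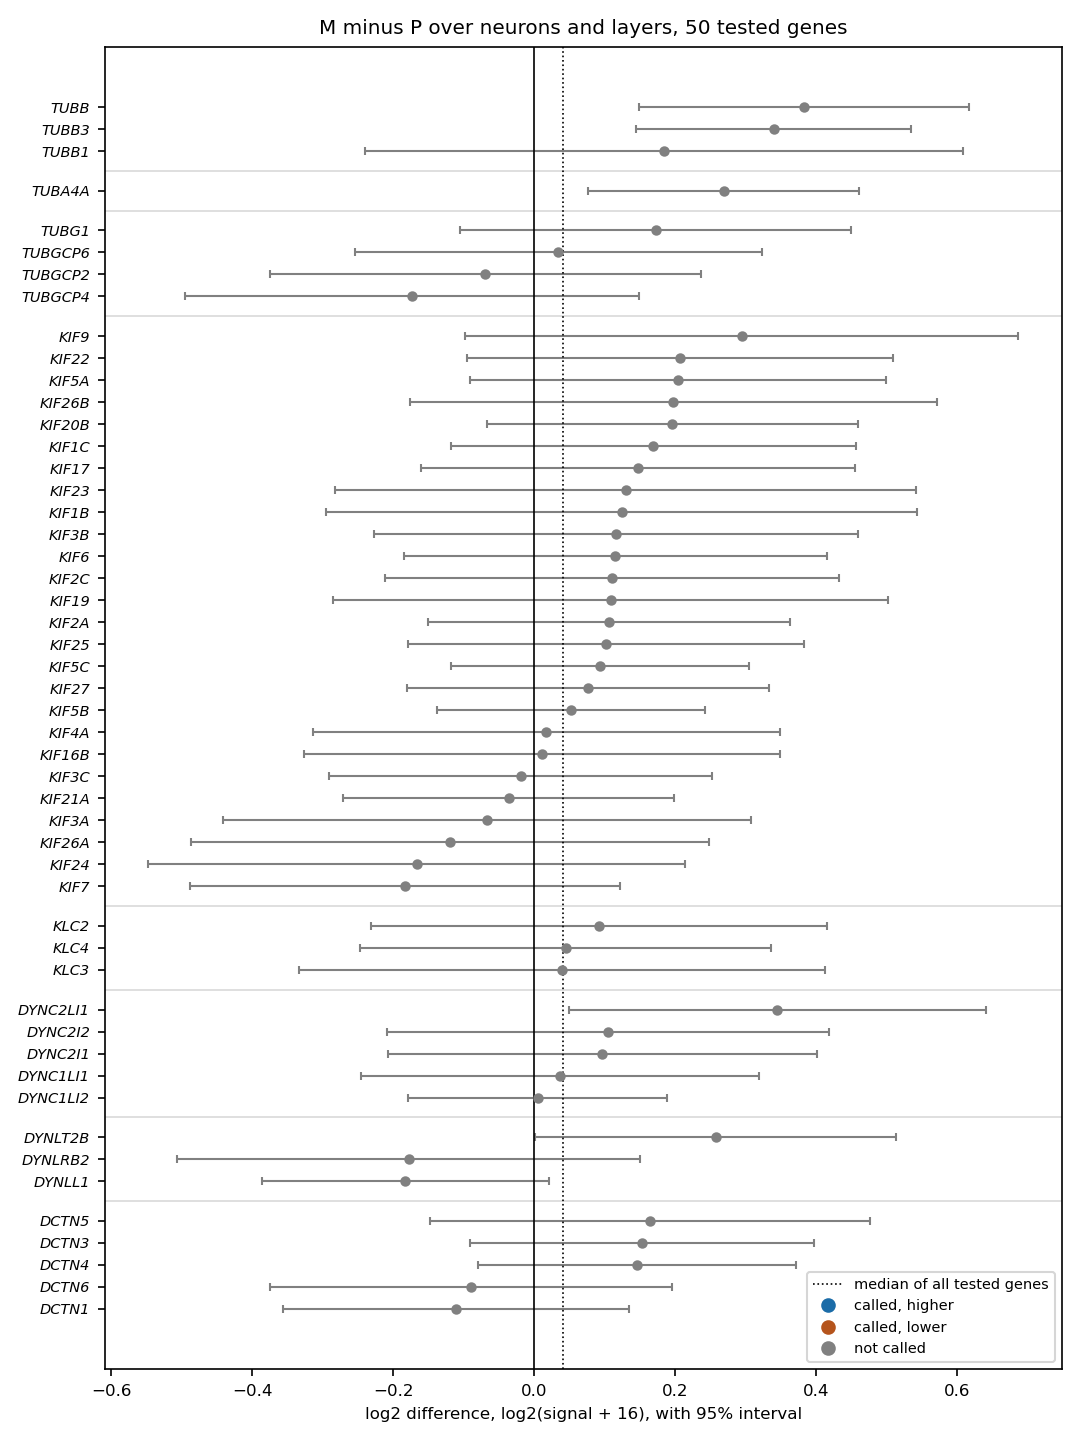
Difference in log2(signal + 16), M minus P over neurons and layers (horizontal axis), for the 50 tested genes on the vertical axis, grouped by family; bars are 95% intervals of the limma fit and the dotted line is the median of all tested genes. No gene is called, and TUBB stands highest at 0.38.

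Of the 58 genes, 8 fell below the filter and were not tested. KLC1, the main kinesin light chain of brain, read 0.601 to 5.17 over the 12 arrays, and DYNC1H1, the dynein-1 heavy chain, 1.70 to 16.6. DYNC1I2, a dynein-1 intermediate chain, read 1.63 to 15.2 and KIF13A 0.752 to 9.78. DYNLT5, KIF12, KIF18A and TUBAL3 were also below it. Low signals on these probe sets say nothing of the transcripts' level, since probe mismatch to vervet sequence was not tested.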

How the data were processed

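The authors deposited one linear intensity for each probe set and array, a MAS5 value according to the submitters' processing notes (version: not given in the sources). The other deposited files, the instrument records of each array, were read only for the fluidics station. Tests here used limma 3.58.1 (R 4.3.3). Values were log2(signal + 16), with 4 group means over 12 rhesus arrays, 8 residual degrees of freedom and a variance trend. Of 52865 probe sets, 99 controls were left out, and those at or above the median of the rest were tested (26383, lowest mean signal 12.0), with two-sided p-values adjusted by Benjamini-Hochberg over all of them. Genes were named from probe sets with 1 symbol in the platform annotation, which can be old. There were 2 probe sets with several symbols of which 1 matched the choice of genes, and these were not read as members. Probe sets without a single symbol could stay among the 26383 tested. Errors are the model's SE for differences and SD for signals, and the number of arrays limits the precision.

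Named genes are the called genes up to 12 in each direction, the smallest p of each family in each direction, and a panel of 29 genes, of which 14 were tested, 3 fell below the filter (KLC1, DYNC1H1 and DYNC1I2) and 12 were not analysed here. The members and all lists were chosen with earlier results of these data known. Same-numbered arrays deviated together (correlations of 0.101 to 0.262 across probe sets between the groups compared, and 12 of 12 arrays closest to their own number), so the pairing comes from the data and not from the labels. For the interaction the lowest correlation was 0.0453. Data were simulated for 26383 probe sets, of which 200 were changed between neurons and layers. There 11% of changes of 0.5 and 79% of changes of 1 were recovered. In the real data 5139 probe sets were called higher and 1215 lower, and the adjustment is stricter where few probe sets change. The recovered shares are therefore not the power of the comparison made here. Alternatives were the pseudocount, the filter, the normalization, the variance trend, the samples in the fit, the replicate and station blocks, single arrays left out and the mean over probe sets. No sequences were used here.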

Additional observations from a re-analysis of the deposited data

How the results depend on the processing

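Between neurons and layers over M and P, 15 to 23 genes were called when 1 array was left out (19 with all), in M 6 to 14 (10 with all) and in P 4 to 13 (11 with all). Between M and P over both captures the count was 0 to 1, and in neurons, in layers and for the interaction 0 to 0. The station as a block left 1 gene called over M and P, 0 in M and 1 in P, and 2 of the related genes. Over all 26383 probe sets that block called 616 over M and P, 33 in M and 115 in P. Quantile normalization gave 7 in P, 2 between M and P, and 13 related genes. Over all probe sets it called 2196 in P. A fit on only the groups compared gave 5 in M and 13 in P. For that fit, for the omissions of arrays and for quantile normalization between M and P, counts over all probe sets are not given here. Leaving out M neuron 3 and M layer 1 together, added after seeing the data, gave 2 in M, with fewer samples in the fit. The contrast within station 4 was also added after seeing the data. The replicate block gave 21 calls over M and P, 14 in M and 13 in P, and ended none of the 19, 10 and 11. Over all probe sets it called 7266 over M and P, where the main fit called 5139 higher and 1215 lower. It called 3688 in M and 3578 in P. Among the 50 genes it gave 0 in each M against P comparison and for the interaction. No named gene that was called reversed its direction under any alternative run. For changes not shown by an alternative's own construction the cause was not tested.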

Other observations

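The human arrays, 2 hybridizations of magnocellular RNA whose titles name layers and whose source names name cell bodies, enter no comparison and are given as values. Of the 8 genes below the rhesus filter, 4 read above the array median on both human arrays. They were KLC1 (634 and 415), DYNC1H1 (250 and 220), KIF13A (130 and 89.7) and DYNC1I2 (54.8 and 37.2), against array medians of 11.3 and 9.78. Of 88 motor and tubulin genes on the human array, 30 have no single-symbol rhesus probe set, and 23 of these read above the median on both arrays. Each gene was read on the brightest of its human probe sets, while the medians are over all 54675 probe sets. Genes with several probe sets therefore pass the median more readily. The share of all genes that pass it was not computed, so these counts have no background. TUBA1A, an alpha tubulin of neurons, read 10883 and 11052, and the beta tubulin TUBB2A 4881 and 3627. DYNC1I1, the neuronal intermediate chain of dynein-1, read 2971 and 2466, and KIF1A, a kinesin of synaptic vesicle precursors, 633 and 601. Values of one probe set cannot be set against another's, and the rhesus values give no level for these genes.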
